A study of Mus musculus with 6 samples.

Results

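DEAD and DEAH box RNA helicases are enzymes that use ATP to unwind or remodel RNA and RNA-protein complexes, and they are named after the amino acids of a short sequence in their ATP-binding core. Members work at nearly every step in the life of an RNA, from ribosome assembly in the nucleolus and the rearrangements of the spliceosome to export, translation and decay of mRNA. A cell that leaves rest and starts to grow makes more ribosomes and more mRNA. The genes described here are the 31 entries of the table, of 8078 in all, whose symbol begins with Ddx or Dhx and a number and stands alone. They comprise 19 Ddx and 12 Dhx genes. The family pair on the X and Y chromosomes was left out, and 1 joined entry, of Ddx19a with Ddx19b, cannot be read for a single gene.

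The cells were sorted as horizontal basal cells, the reserve stem cells of the olfactory epithelium. They came from 12-week-old B6 mice carrying KRT5-CreER and Ai9 fl(Stop)TdTomato, in which tamoxifen given 2 weeks before the sort turned on the red fluorescent TdTomato in keratin 5 cells. For the 3 injured libraries, tissue was collected 18 h after mice had breathed methyl bromide at 180 ppm for 8 h, a gas that strips the olfactory epithelium. The 3 uninjured libraries were made from undisturbed epithelium with the same transgenes and tamoxifen. Each library pooled cells of several animals, so a library is the replicate, and the values are taken to be FPKM, fragments scaled to transcript length and to library size.

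Summed FPKM was 164265 to 231755 per library. The 7 of 9 listed horizontal basal cell genes in the table summed to 281 to 591 FPKM in injured libraries and 423 to 1160 FPKM in uninjured ones, where Perp was at 869 FPKM in uninjured replicate 2. Krt5 was not analysed here. The basal cell factor Trp63 was lower in every injured library, at 99.5 to 140 FPKM in injured libraries and 157 to 194 FPKM in uninjured ones (log2 change -0.61). The groups overlapped for the others, with log2 changes of 1.44 for Cav1, 0.79 for Itga6, 0.34 for Itgb4, 0.32 for Icam1, -0.02 for Egfr and -0.54 for Perp. The 7 of 9 listed genes of mature olfactory neurons in the table summed to 126 to 361 FPKM in injured libraries. In uninjured libraries their sum was 435 to 748 FPKM. Stoml3, Adcy3, Cnga4 and Ano2 were lower in every injured library (log2 changes -1.73, -1.44, -1.30 and -1.20). Gng13, Cnga2 and Rtp1 overlapped between groups (log2 changes -1.53, -1.15 and -0.67). Rtp1 in injured replicate 2, at 32.8 FPKM, was above every uninjured library. The 7 of 8 listed genes of globose basal and precursor cells in the table summed to 20.8 to 218 FPKM in injured libraries and 21.0 to 36.8 FPKM in uninjured ones, with the high value in injured replicate 2, where Gap43 was at 113 FPKM. That library also stood apart from the other injured ones across genes (Pearson r on the log2 scale of 0.734 and 0.754, against 0.849 between injured replicates 1 and 3). The 6 of 8 listed sustentacular cell genes in the table summed to 262 to 691 FPKM in injured libraries and 368 to 418 FPKM in uninjured ones. Cyp1a2, Muc2 and Hes1 among them were lower in every injured library (log2 changes -2.18, -1.19 and -0.65). The groups overlapped for the rest, with log2 changes of 0.93 for Krt18, -0.19 for Ermn and -0.41 for Sult1c1. Krt18 reached 558 FPKM in injured replicate 3. The 3 of 6 listed fibroblast genes in the table summed to 32.8 to 101 FPKM in injured libraries and 126 to 220 FPKM in uninjured ones, without overlap. Of these, Dcn was lower in every injured library (log2 change -2.18), while Col1a1 and Col1a2 overlapped. The sums of the 3 gland and respiratory genes of 9, the 3 immune genes of 8 and the 1 erythrocyte gene of 3 overlapped between groups. Of the gland and respiratory genes, Plunc was lower in every injured library (log2 change -1.14). Foxj1 and Reg3g overlapped, with log2 changes of -0.41 and 0.43. None of 5 endothelial genes was analysed here. None of these marker genes was listed at 0.001, the lowest value of the table, and their part in the helicase values was not tested. Xist was at 0.0645 to 0.561 FPKM in injured libraries and 27.0 to 33.8 FPKM in uninjured ones, so injury and the sex of the pooled animals cannot be told apart. The Y-linked gene Eif2s3y was at 23.0, 29.3 and 21.1 FPKM in injured libraries 1 to 3, against 18.8, 2.73 and 2.55 FPKM in uninjured libraries 1 to 3, so the uninjured pools also differed among themselves.

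The short sequence that names the family lies in the ATP-binding core, and its coding bases are shown for the genes on which the results below turn. They were read from GENCODE M21 (GRCm38), from transcripts whose longest open reading frame had the annotated coding length. The longest such coding sequence of each gene was used. Shown are 12 bases on each side in lower case and the 12 bases of the box itself in capitals.
Ddx39: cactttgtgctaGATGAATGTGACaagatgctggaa
Bat1a: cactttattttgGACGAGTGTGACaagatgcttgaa
Ddx10: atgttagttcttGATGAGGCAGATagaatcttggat
Ddx18: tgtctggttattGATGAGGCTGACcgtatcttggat
Ddx6: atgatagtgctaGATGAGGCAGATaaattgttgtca
Dhx33: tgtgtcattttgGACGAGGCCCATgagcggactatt
Dhx29: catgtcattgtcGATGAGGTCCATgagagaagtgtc
Dhx38: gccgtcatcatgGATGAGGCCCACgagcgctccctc
In Ddx10, Ddx18 and Ddx6 the capitals spell DEAD, in Dhx33 and Dhx38 DEAH and in Dhx29 DEVH. Ddx39 and its close relative Bat1a, now named Ddx39b in RefSeq, spell DECD instead. The box was searched for 40 to 160 codons after the nucleotide-binding loop and was found in 27 of the 31 members, as DEAD in 14, DEAH in 6, DEVH in 3, DEIH in 2, and DECD and DESD in 1 each. The 14 DEAD boxes were written with 9 different sets of codons. Ddx1, Ddx24, Dhx32 and Ddx26b gave no match in that window. Ddx26b is listed by RefSeq as Ints6l, a relative of a subunit of the Integrator complex, so its place in the family rests on the older symbol.

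The comparison asks how the genes of sorted basal cells differ 18 h after the lesion. Most helicase genes stood somewhat higher in the injured libraries, and 1 of them, Ddx39, stood far above the rest. In bulk libraries a change in the mix of cells and a change per cell cannot be told apart. No member passed the test over all genes: limma on log2(FPKM + 1) called 0 of 31 higher and 0 of 31 lower at a Benjamini-Hochberg adjusted p of 0.05, where 0.00% of the 7987 genes tested were called higher and 0.0125%, which is Xist alone, were called lower. The log2 change was positive in 26 members and negative in 5, against 62.9% positive among all genes tested. The median change was 0.36 for the members and 0.16 for all genes, so the members lay 0.21 above that general shift. At an unadjusted p of 0.05 there were 3 members higher and 0 lower, against 7.15% and 4.04% of all genes. Every injured library lay above every uninjured one for 8 members, Ddx39, Ddx18, Ddx10, Dhx33, Ddx20, Ddx1, Dhx29 and Ddx49, against 12.0% of all genes. Every injured library lay below for 1 member, Ddx6, against 6.75% of all genes. All changes given are differences on that log2 scale, injured minus uninjured, and for genes with low values they are smaller than the true ratio.

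The general shift depends on how libraries are scaled. The entry Mir703 was a smaller share of summed FPKM in every injured library than in every uninjured one. Without it and after rescaling, the median was 0.02 for all genes and 0.22 for the members. After upper-quartile scaling, where all genes had a median of -0.01, 21 members were positive and 10 negative, with a median of 0.19, which is 0.20 above that of all genes. Positive changes then made up 67.7% of members and 48.8% of all genes. Every injured library then lay above for 6 members, against 7.19% of all genes, and after quantile normalization for 4, Ddx1, Ddx10, Ddx39 and Dhx29, against 7.64%. Ddx6 lay below under both. Without injured replicate 2, which leaves 2 injured libraries, 24 members were positive, with a median of 0.42 beside 0.18 for all genes. Both remaining injured libraries then lay above every uninjured one for 13 members, against 29.7% of all genes, and below for 2, Ddx6 and Ddx17, against 14.4%.

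**Figure D1:**
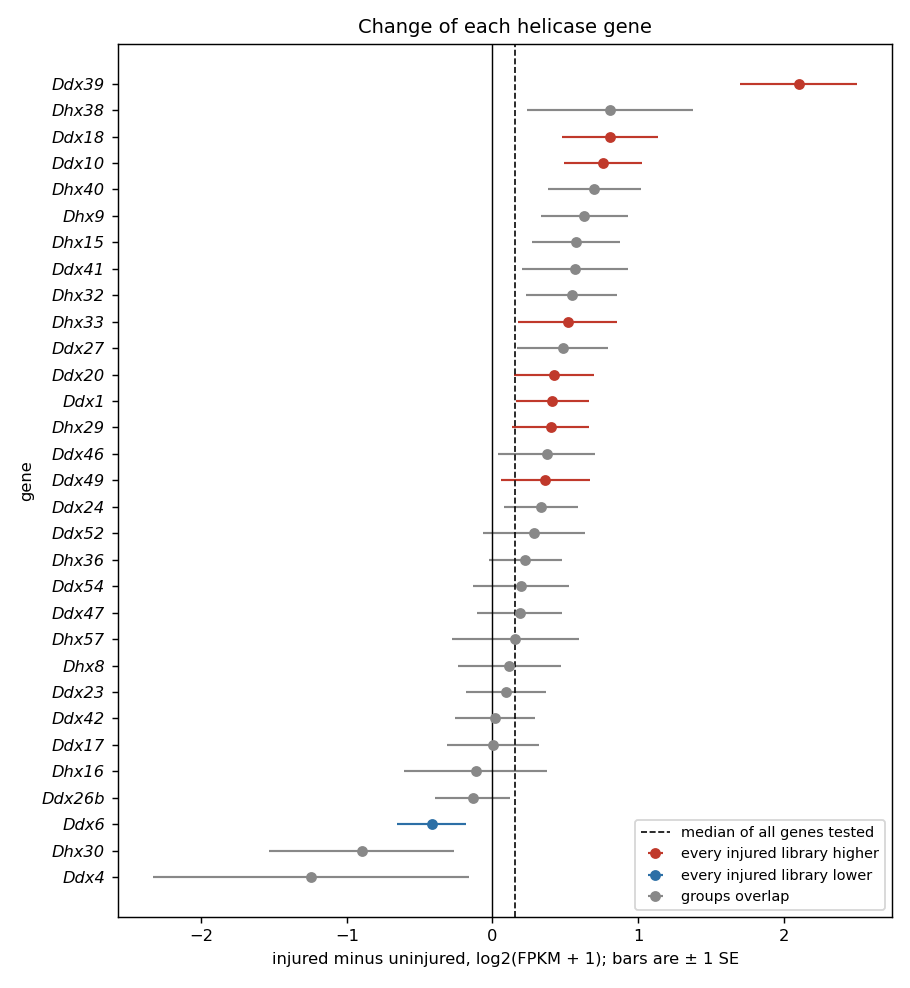
Difference between injured and uninjured libraries in log2(FPKM + 1) for each of the 31 helicase genes, as points with bars of ± 1 SE from limma (3 libraries per group), ordered from the largest. Red points mark genes with every injured library higher, the blue point Ddx6 with every injured library lower, and the dashed line the median of all genes at 0.16. Ddx39 at 2.10 lies apart, and no member passed at an adjusted p of 0.05.

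Ddx39 encodes a helicase of mRNA export, also known as URH49, and it showed the largest change among the members. It was at 37.7, 12.9 and 40.4 FPKM in injured libraries 1 to 3, against 6.01, 5.07 and 5.65 FPKM in uninjured libraries 1 to 3. All injured libraries were above all uninjured ones, and injured replicate 2 was the lowest of the injured ones. The means were 30.3 ± 15.1 FPKM in injured and 5.58 ± 0.478 FPKM in uninjured libraries (SD, n = 3 each), a ratio of 5.44. The log2 change of 2.10 ± 0.40 (SE) ranked at 49 among the 7987 genes tested, with a limma adjusted p of 0.144. Without injured replicate 2 the change was 2.61 and the limma adjusted p was 0.00289, with 3.52% of all genes then called higher and 1.17% lower, and Ddx39 was the only member called.

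Bat1a, also known as UAP56, is the paralog of Ddx39 and a core part of the complex that couples splicing to export. It was at 54.0, 45.2 and 61.7 FPKM in injured libraries 1 to 3, against 29.6, 28.7 and 31.6 FPKM in uninjured libraries 1 to 3. The groups did not overlap, and the injured mean was 1.79 times the uninjured one (log2 change 0.81 ± 0.26, limma adjusted p = 0.320). In uninjured libraries Ddx39 was thus the less abundant of the pair by FPKM, at 5.58 ± 0.478 beside 29.9 ± 1.49 FPKM (SD, n = 3). The coding sequences of both genes are identical at 80.9% of 1284 aligned bases, with the longest identical run at 26 bases, and within the 36 bases printed above they differ at 7. How reads matching both genes were assigned was not given in the sources used here.

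**Figure D2:**
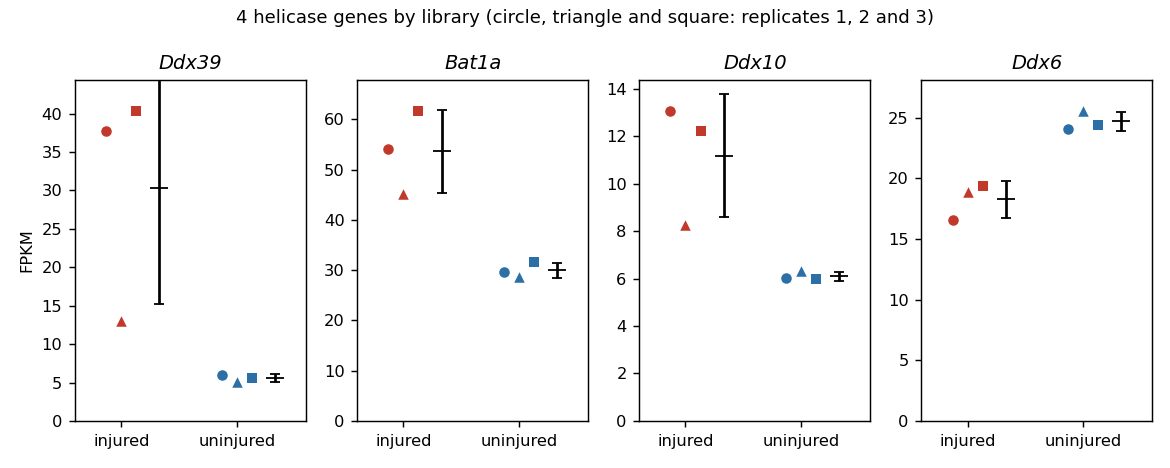
FPKM of Ddx39, Bat1a, Ddx10 and Ddx6 in each library, injured on the left and uninjured on the right, with the mean and SD of 3 libraries beside the points. Injured libraries lie above all uninjured ones for Ddx39, Bat1a and Ddx10 and below them for Ddx6, and injured replicate 2 (triangle) is the lowest injured value of Ddx39, Bat1a and Ddx10.

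Other members that act on mature mRNA showed smaller or opposite differences, and none passed. Ddx6 represses translation and promotes decapping of mRNA in cytoplasmic granules called P-bodies. It was at 16.5, 18.9 and 19.4 FPKM in injured libraries 1 to 3, against 24.1, 25.6 and 24.4 FPKM in uninjured libraries 1 to 3. Every injured library was below every uninjured one, with means of 18.3 ± 1.53 FPKM in injured and 24.7 ± 0.779 FPKM in uninjured libraries (SD, n = 3 each) and a log2 change of -0.42 ± 0.24 (limma adjusted p = 0.536). Dhx29, which helps the small ribosomal subunit scan structured leaders, was at 6.60, 6.44 and 7.02 FPKM in injured libraries and at 4.75, 4.40 and 5.36 FPKM in uninjured ones. Its injured values lay within a narrow band above the uninjured ones (log2 change 0.40 ± 0.27, limma adjusted p = 0.582). Dhx36, which unwinds G-quadruplexes, overlapped between groups, at 11.5 ± 0.692 FPKM in injured and 9.80 ± 2.14 FPKM in uninjured libraries (SD, n = 3 each).

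None of the 9 members that build ribosomes passed. All 9 had a positive change, against 62.9% of all genes, except that Ddx54 was at -0.0027 after quantile normalization. Their median of 0.36, with a range of 0.19 to 0.81, was that of all 31 members, beside 0.16 for all genes. For 4 of them, Ddx10, Ddx18, Dhx33 and Ddx49, every injured library lay above every uninjured one, against 12.0% of all genes. Ddx10, whose yeast counterpart Dbp4 acts on the precursor of the small subunit, was at 13.1, 8.24 and 12.2 FPKM in injured libraries 1 to 3, against 6.01, 6.30 and 5.98 FPKM in uninjured libraries 1 to 3. The uninjured values lay close together, injured replicate 2 was the nearest to them, and the log2 change was 0.76 ± 0.27 (limma unadjusted p = 0.0179, adjusted p = 0.365). Ddx18, the counterpart of yeast Has1, was at 14.2, 8.18 and 6.16 FPKM in injured libraries 1 to 3, against 4.77, 5.54 and 3.95 FPKM in uninjured libraries 1 to 3. Injured replicate 3 was close to the highest uninjured library, and the log2 change was 0.81 ± 0.33 (limma unadjusted p = 0.0347, adjusted p = 0.402), which was 0.50 without injured replicate 1.

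Dhx33, linked to transcription of ribosomal DNA, was at 4.43, 3.76 and 5.90 FPKM in injured libraries 1 to 3, against 2.92, 2.50 and 3.45 FPKM in uninjured libraries 1 to 3 (log2 change 0.52 ± 0.34, limma adjusted p = 0.576). Ddx49 was at 4.27, 4.95 and 6.43 FPKM in injured libraries and at 3.53, 4.02 and 3.80 FPKM in uninjured ones (log2 change 0.36 ± 0.30, limma adjusted p = 0.654). After upper-quartile scaling the groups of Ddx18 and Ddx49 overlapped. Ddx47, the most abundant of these genes, was at 14.9 ± 4.64 FPKM in injured and 12.7 ± 2.61 FPKM in uninjured libraries (SD, n = 3 each), and its groups overlapped. The changes of Ddx24, Ddx27, Ddx52 and Ddx54 lay between 0.19 and 0.48, all with overlapping groups, and the highest value of Ddx52 was 19.8 FPKM in injured replicate 3. Ddx52 had a change of -0.08 without that library, and Ddx47 one of -0.03 without injured replicate 1.

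The spliceosomal helicases drive the successive rearrangements of the splicing machinery, and none of the 8 in the table passed. The change was positive in 7, against 62.9% of all genes, and in 4 after upper-quartile scaling, against 48.8%. Their median was 0.24, beside 0.16 for all genes, and 0.08 after that scaling, beside -0.01. The groups separated in none, against 12.0% of all genes higher and 6.75% lower. Dhx15, which takes apart the spent spliceosome, was the most abundant of them, at 43.6, 77.7 and 57.7 FPKM in injured libraries 1 to 3, against 46.7, 32.3 and 38.3 FPKM in uninjured libraries 1 to 3 (log2 change 0.57 ± 0.30, limma adjusted p = 0.502). Here injured replicate 2 was the highest library and uninjured replicate 1 overlapped the injured range. Ddx46, which acts when the U2 particle joins the intron, was at 21.4 ± 6.76 FPKM in injured and 16.6 ± 6.70 FPKM in uninjured libraries (SD, n = 3 each). Dhx38, the counterpart of yeast Prp16, was at 19.6, 5.18 and 2.91 FPKM in injured libraries 1 to 3, against 4.71, 2.62 and 3.49 FPKM in uninjured libraries 1 to 3. Its log2 change of 0.81 ± 0.57 (limma adjusted p = 0.600) rested on injured replicate 1, without which it was 0.12.

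Dhx16, the counterpart of yeast Prp2, was at 3.14, 4.26 and 14.9 FPKM in injured libraries 1 to 3, against 4.68, 8.59 and 7.04 FPKM in uninjured libraries 1 to 3. The injured libraries spanned the uninjured ones on both sides, and its log2 change was -0.11 ± 0.49. Ddx41 was at 11.9 ± 3.98 FPKM in injured and 7.89 ± 3.45 FPKM in uninjured libraries, and Dhx8, which releases the spliced mRNA, at 4.14 ± 1.15 FPKM in injured and 3.75 ± 1.07 FPKM in uninjured libraries (SD, n = 3 each). The changes of Ddx23, Ddx42 and Dhx8 were 0.09, 0.02 and 0.12, and each was negative after upper-quartile scaling.

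Members of transcription and nuclear RNA processing included the most abundant helicase genes. Ddx17, a coactivator and cofactor of microRNA processing, had the highest mean of all members, at 41.7, 79.1 and 46.8 FPKM in injured libraries 1 to 3, against 48.8, 64.0 and 49.1 FPKM in uninjured libraries 1 to 3. Injured replicate 2 was above and the other injured libraries below every uninjured one, and the log2 change of 0.00 ± 0.32 was -0.27 without injured replicate 2. Dhx9, also called RNA helicase A, was at 53.3, 37.6 and 46.0 FPKM in injured libraries 1 to 3, against 39.2, 28.0 and 21.9 FPKM in uninjured libraries 1 to 3 (log2 change 0.63 ± 0.30, limma adjusted p = 0.467). Only uninjured replicate 1 reached into the injured range.

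Ddx1, a subunit of the tRNA ligase complex, was at 24.7, 20.5 and 28.7 FPKM in injured libraries 1 to 3, against 16.9, 19.7 and 17.9 FPKM in uninjured libraries 1 to 3. Its groups were separate, with injured replicate 2 nearest to the uninjured libraries (log2 change 0.41 ± 0.25, limma adjusted p = 0.559). Ddx20, the Gemin3 subunit of the SMN complex that assembles spliceosomal particles, was at 9.88, 6.35 and 7.25 FPKM in injured libraries 1 to 3, against 5.22, 5.88 and 5.40 FPKM in uninjured libraries 1 to 3, again without overlap (log2 change 0.42 ± 0.27, limma adjusted p = 0.575).

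**Figure D3:**
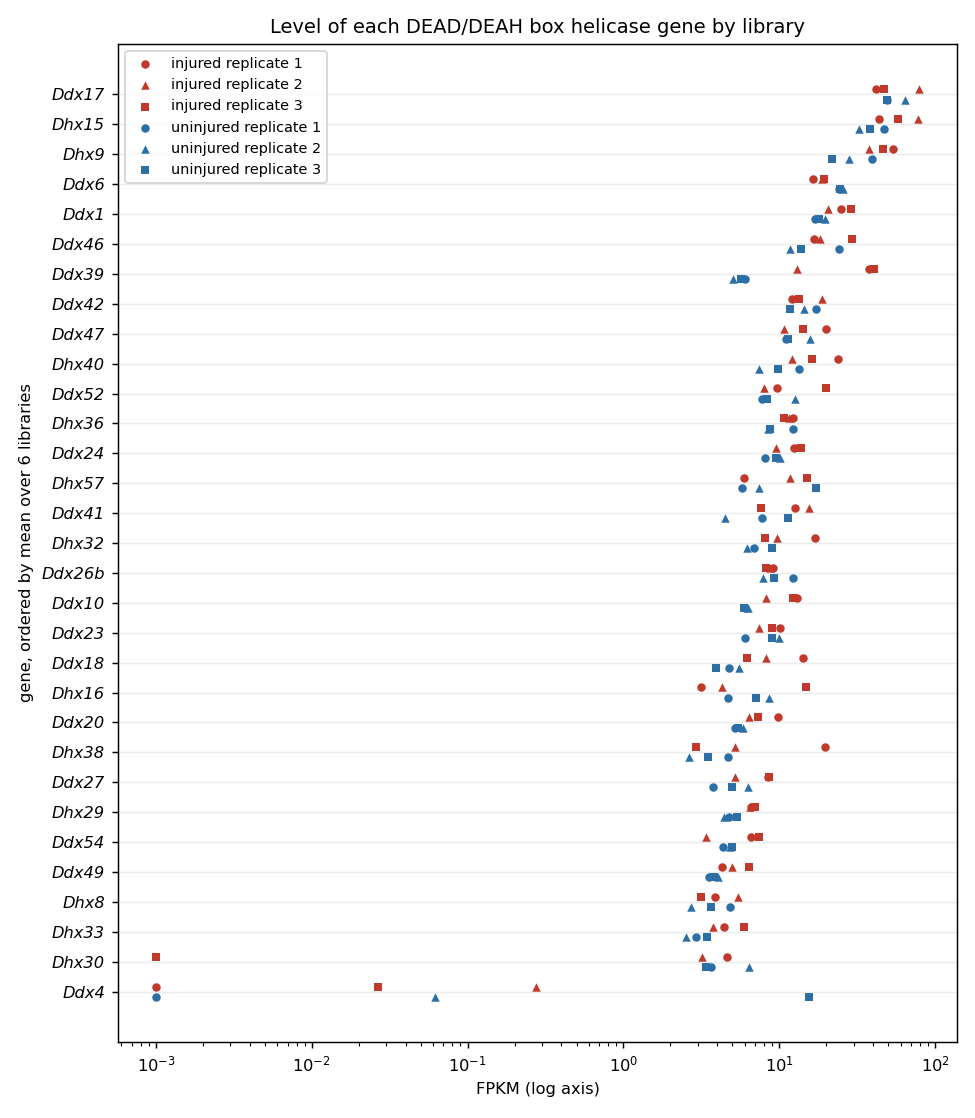
FPKM of each helicase gene in each library on a log axis, ordered from the highest mean (Ddx17) to the lowest (Ddx4), injured in red above uninjured in blue, with a symbol for each replicate. The spread between libraries of a group is often as wide as the distance between groups, and Dhx30 and Ddx4 have libraries at the lowest value of 0.001.

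The lowest members by mean were Ddx4, Dhx30 and Dhx33. Ddx4, the germ cell helicase also known as Vasa, was listed at 0.001, 0.276 and 0.0268 FPKM in injured libraries 1 to 3 and at 0.001, 0.0616 and 15.5 FPKM in uninjured libraries 1 to 3. The single library at 15.5 FPKM set its mean and its log2 change of -1.25 ± 1.08. Without that library Ddx4 was under the minimum mean of 1 FPKM for testing. Dhx30, which serves mitochondrial ribosome assembly, was at 4.64, 3.17 and 0.001 FPKM in injured libraries 1 to 3, against 3.66, 6.42 and 3.40 FPKM in uninjured libraries 1 to 3, so its change of -0.90 ± 0.64 rested on the library listed at the lowest value. What 0.001 stands for was not given in the sources used here. Dhx40 was at 23.7, 12.0 and 16.3 FPKM in injured libraries 1 to 3, against 13.4, 7.36 and 9.87 FPKM in uninjured libraries 1 to 3, with overlap at uninjured replicate 1 (log2 change 0.70 ± 0.32, limma adjusted p = 0.456). Dhx32, Dhx57 and Ddx26b had changes of 0.54, 0.16 and -0.14 with overlapping groups. Ddx26b lies on the X chromosome, and the part of sex in its values was not tested.

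Against the uninjured mean, the 9 ribosome biogenesis members had a median of 0.46, 0.07 and 0.64 in injured libraries 1 to 3. The 8 splicing members had a median of 0.12, 0.41 and 0.08 in injured libraries 1 to 3. By these medians injured replicate 2 was the lowest of the injured libraries for ribosome biogenesis and the highest for splicing, a difference that was not tested. Gene by gene, it was the lowest injured library for 7 of the 9 ribosome biogenesis members, all but Ddx18 and Ddx49. It was the highest for 4 of the 8 splicing members, Dhx15, Ddx42, Ddx41 and Dhx8, and the lowest for Ddx23. Among all genes tested, injured replicate 2 was the lowest injured library for 47.0% and the highest for 30.1%. Over all 31 members the medians were 0.38, 0.25 and 0.46, beside 0.14, 0.01 and 0.18 over all genes tested. Injured replicate 2 had the lowest of the injured values in 14 of 31 members, against 47.0% of all genes. This is the library with the high precursor cell genes. Each listed mature olfactory neuron gene in the table was also highest there among the injured libraries. Gng13, for one, was at 129 FPKM there, beside 20.7 and 14.9 FPKM in injured replicates 1 and 3. The part of both marker lists in these values was not tested.

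**Figure D4:**
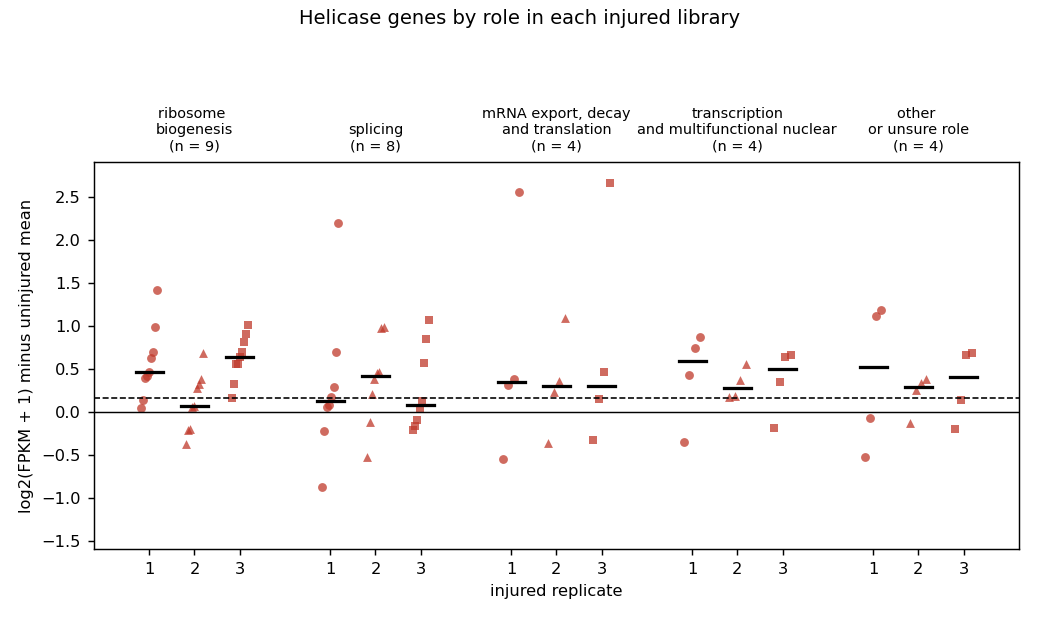
Level of each helicase gene in injured replicates 1 to 3 minus its mean over the uninjured libraries, on the log2(FPKM + 1) scale, by role; black bars are medians and the dashed line is the median change of all genes at 0.16. The median of the ribosome biogenesis members is lowest in injured replicate 2 (0.07) and that of the splicing members highest there (0.41), with single members of both roles placed otherwise. The single germ line and mitochondrial members are not drawn.

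Of 9 tested helicases of related families that bear other names, none was called in either direction, and 2 were higher at an unadjusted limma p of 0.05, against 7.15% of all genes. The change was positive in 8, against 62.9% of all genes, and in 5 after upper-quartile scaling, against 48.8%. Their median was 0.22, beside 0.16 for all genes, and 0.06 after that scaling, beside -0.01. The groups were separate in 3, against 12.0% of all genes. Besides Bat1a, the groups were separate for Supv3l1, a helicase of mitochondrial RNA turnover, at 7.22 ± 2.73 FPKM in injured and 3.07 ± 0.855 FPKM in uninjured libraries (SD, n = 3 each; log2 change 0.99 ± 0.35, limma adjusted p = 0.365), and for Ascc3. Snrnp200, the U5 helicase of the spliceosome, was at 19.2 FPKM in injured and 18.2 FPKM in uninjured libraries on average. Of 27 cofactors that activate or recruit these helicases none was called, and 0 were past an unadjusted limma p of 0.05, against 7.15% of all genes higher and 4.04% lower. The change was positive in 24, against 62.9% of all genes, and in 17 after upper-quartile scaling, against 48.8%. Their median was 0.23, beside 0.16 for all genes, and 0.06 after that scaling, beside -0.01. Every injured library lay above every uninjured one for 3, Eif4enif1, Patl1 and Gemin5, against 12.0% of all genes. Every injured library lay below for 0, against 6.75%. Eif4g1, the scaffold that activates the helicase eIF4A, was at 34.1, 17.0 and 33.7 FPKM in injured libraries 1 to 3, against 16.8, 17.7 and 16.7 FPKM in uninjured libraries 1 to 3, so that injured replicate 2 alone lay at the uninjured level (log2 change 0.63 ± 0.31, limma adjusted p = 0.478). Smn1, the partner of Ddx20, had a change of 0.63 ± 0.32 with overlapping groups. The most abundant cofactors, Eif4b and Magoh, had changes of 0.03 and 0.14, and Rbm17 and Rbm5 had changes of -0.20 and -0.18.

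Promoters were read for 27 members from the RefSeq table (GRCm38.p6), using the 250 bases upstream of each start. The letters CCGGAAG, the core bound by ETS factors, were present on either strand in 9 of the 27 member genes (33.3%), against 15.6% of 6308 genes of the deposited table with a promoter. CCAAT was present on either strand in 12 (44.4%), against 40.9%, and CACGTG, the E-box, which reads the same on both strands, in 4 (14.8%), against 9.99%. No matches overlap in the sequences shown. The upstream bases of 3 members with separate groups are given 5′ to 3′ on the gene's strand, with the motifs found in capitals.
Ddx10, chr9:53248113-53248362, minus strand: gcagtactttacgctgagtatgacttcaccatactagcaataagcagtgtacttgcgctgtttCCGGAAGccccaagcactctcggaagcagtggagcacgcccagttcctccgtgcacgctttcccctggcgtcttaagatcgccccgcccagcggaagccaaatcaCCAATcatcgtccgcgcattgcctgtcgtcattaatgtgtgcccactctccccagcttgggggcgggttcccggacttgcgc
Ddx18, chr1:121567981-121568230, minus strand: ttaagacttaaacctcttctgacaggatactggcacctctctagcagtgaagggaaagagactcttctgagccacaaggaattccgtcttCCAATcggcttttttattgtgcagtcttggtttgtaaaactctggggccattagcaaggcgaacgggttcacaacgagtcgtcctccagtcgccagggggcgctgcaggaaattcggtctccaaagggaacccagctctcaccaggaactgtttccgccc
Dhx33, chr11:71004433-71004682, minus strand: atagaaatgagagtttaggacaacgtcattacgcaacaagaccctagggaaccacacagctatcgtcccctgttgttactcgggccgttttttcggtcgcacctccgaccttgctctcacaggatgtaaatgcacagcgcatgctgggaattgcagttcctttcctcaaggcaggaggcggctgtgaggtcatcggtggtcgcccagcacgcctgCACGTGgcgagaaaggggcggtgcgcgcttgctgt
Ddx10 holds CCGGAAG and CCAAT, Ddx18 holds CCAAT and Dhx33 holds CACGTG in this window. Of the 8 members with every injured library higher, Ddx1, Ddx10 and Ddx49 hold CCGGAAG, and the table gives no promoter for Ddx39. These matches describe letters in a window and are no evidence of binding.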

How the data were processed

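Per the labels, libraries were prepared by the Nextera XT protocol from polyA RNA of TdTomato-positive sorted cells and read on an Illumina HiSeq. The authors deposited a single table of genes by libraries. It names no unit. The values are taken to be FPKM, because Cuffdiff is named in the submitters' processing notes beside FastQC, TopHat and build mm9, whose versions and roles are not given in the sources used here. Nor are the annotation or any scaling between libraries. Read depth is unknown, so no counting intervals were computed.

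The 7987 of 8078 genes whose mean reached 1 FPKM, all 31 members among them, were tested with limma 3.58.1 in R 4.3.3 on log2(FPKM + 1), injured against uninjured, no covariate, with a trended, robust eBayes step and p-values adjusted by Benjamini-Hochberg over all of them. The code was tested on simulated data. The members and lists were chosen with earlier results of these data known. Genes described singly are those with separate groups, the largest changes either way, the highest and lowest means, the highest and most changed member of each role, and the related pair of Ddx39. Smn1, Snrnp200 and Ascc3, and members named only to account for the whole family, were added after their values were seen. Coding sequences and promoters were read with Python 3.11.15 and Biopython 1.88, and figures drawn with matplotlib 3.10.9. Gene positions of mm9 were not used here. Alternatives were leaving out each library, a replicate block, other filters, scalings and pseudocounts, limma without trend and robust steps, and library quality weights.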

Additional observations from a re-analysis of the deposited data

How the results depend on the processing

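Of 490 member values under 16 alternatives, 454 kept their sign and their side of the threshold, 3 passed where they had not before, all of them Ddx39, and 33 changed sign, none of them past the threshold. For 21 members the sign held under every alternative that gave a value, and 17 of these had a value under all 16. Ddx4, Dhx30, Dhx33, Ddx49 and, among those whose sign changed, Dhx8 were not tested at a mean of at least 5 FPKM. Nor was Ddx4 tested without uninjured replicate 3. Where a value moved, the cause was not tested unless named.

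Over all genes 0 were higher and 1 lower. There were 3 higher and 3 lower without trend and robust steps, 85 and 49 with library quality weights, 571 and 323 at an unadjusted p of 0.05, and 0 to 278 and 1 to 92 when a library was left out, the highest without injured replicate 2. Upper-quartile scaling gave 3 lower, quantile normalization 4 and a pseudocount of 0.1 gave 2. Members called higher numbered 0, 3 at an unadjusted p, 1 with library quality weights (Ddx39, limma adjusted p = 0.0108), and 0 to 1 when a library was left out, the 1 being Ddx39 without injured replicate 2. Outside the replicate block, the limma adjusted p of Ddx39 ran from 0.00289 (without injured replicate 2) to 0.488 (without uninjured replicate 3). The limma fit with the block gave 1.05e-06, from a pairing by replicate number for which the check below gives no basis. The members' median of 0.36 was 0.19 after upper-quartile scaling, 0.19 after quantile normalization, 0.22 without the entry Mir703 (8.01% to 25.4% of summed FPKM) after rescaling, and 0.26 to 0.42 when a library was left out, the lowest without injured replicate 3.

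With the replicate number as a block, 134 genes were higher and 87 lower, and 1 member, Ddx39, was higher (change 2.10). Deviations of same-numbered libraries correlated at -0.089, 0.068 and -0.078, and not every library correlated best with its own number. These values give no basis for the pairing. Being weak, and from deviations centred within 3 libraries, they cannot show whether same-numbered libraries were handled together.

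Signs changed under scaling for Ddx17 (-0.18 upper-quartile, -0.14 quantile, -0.15 without Mir703), Ddx23 (-0.078, -0.090 and -0.052), Ddx42 (-0.16, -0.16 and -0.13), Dhx57 (-0.013 upper-quartile, -0.0067 quantile), Dhx8 (-0.031 upper-quartile, -0.0084 without Mir703) and Ddx54 (-0.0027 quantile). With library quality weights Ddx17 was at -0.23 and Ddx42 at -0.055. With a library left out, the range was -0.27 to 0.18 for Ddx17, -0.10 to 0.22 for Ddx23, -0.27 to 0.023 for Ddx26b, -0.16 to 0.15 for Ddx42, -0.030 to 0.39 for Ddx47, -0.079 to 0.53 for Ddx52, -0.70 to 0.27 for Dhx16, -0.13 to 0.58 for Dhx57 and -0.055 to 0.28 for Dhx8.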
